A study of Mus musculus with 39 samples.

Results

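Cumulus expansion and ovulatory response genes were followed over oocytes, cumulus cells, fertilised embryos and cloned embryos. The 10 genes were the epidermal growth factor (EGF)-like ligand genes Areg, Ereg and Btc, the prostaglandin synthase gene Ptgs2, the hyaluronan synthase gene Has2, the matrix genes Tnfaip6, Ptx3 and Vcan, the hyaluronan receptor gene Cd44 and the protease gene Adamts1. They were chosen by name, and their probes were found through the transcript accession of each probe and the RefSeq mouse annotation, which named 18905 genes among 41174 probes. All 10 genes were on the array, with 19 probes, and all 19 passed the filter on low signals. Has2, Tnfaip6, Areg and Ereg had 1 probe each, Ptgs2, Ptx3, Btc and Adamts1 had 2, Cd44 had 3 and Vcan had 4. For genes with several probes, the lead probe was the one with the highest mean over all 39 arrays.

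After the surge of luteinising hormone, granulosa cells of the follicle release EGF-like ligands, which act on the EGF receptor of cumulus cells around the oocyte. Cumulus cells then make hyaluronan, prostaglandins and the proteins that cross-link the matrix, and the cumulus–oocyte complex swells and is ovulated. Growth factors from the oocyte, GDF9 among them, allow the cumulus cells to respond.

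Recipient oocytes, 2-cell embryos and nuclear donor cells of (B6xDBA/2)F1 mice were on 39 one-colour arrays in 7 groups. Females of 8 to 10 weeks had been superovulated, complexes had been taken from the oviducts 15 h after human chorionic gonadotropin, and cumulus cells had been freed with 0.1% hyaluronidase, which digests the hyaluronan matrix itself. The groups were 7 arrays of unfertilised metaphase II oocytes (OC), 6 of 2-cell embryos from in vitro fertilisation (IVF), 8 of untreated 2-cell embryos cloned from cumulus cells (TSA(-)), 6 of such clones given 5 nM trichostatin A for 8 h from activation (TSA(+)), 4 each of clones injected at the pronuclear stage with 1.0 or 0.1 mg/ml Spi-C mRNA (Spi-C 1.0 and Spi-C 0.1, together Spi-C NT), and 4 of donor cumulus cells (Cumulus). Trichostatin A (TSA) inhibits histone deacetylases, and Spi-C is a transcription factor of the ETS family. The IVF group had no treatment, and all embryos had been cultured for 24 h. Each array held RNA of 10 pooled oocytes or embryos or of 500 cumulus cells after 2 rounds of linear amplification. Nothing in the labels says that pools of a group came from separate females, so p-values measure the spread between arrays.

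Levels are log2 intensities relative to the 75th percentile of the array, so that they say how bright a probe was beside the bulk of transcripts of that sample. Levels of different probes were not set against each other, except where marker genes were summed. A spot was taken as measured where the scanner software had marked it well above background, and a probe unmarked on all arrays of a group has only an upper bound there. Over arrays, 48.6 to 77.4% of probes were so marked, and the 75th percentile was lowest in OC (median 373 units) and highest in the Spi-C groups (medians 2364 and 2523 units). The median over all probes was -1.14 for Cumulus minus OC and -0.90 for IVF minus OC, and lay within 0.24 of 0 in the comparisons among embryos. OC, IVF, TSA(-) and TSA(+) arrays shared slides, 1 scanner model and version 9 of the software; Cumulus had 1 slide of its own and Spi-C NT had 2, with another scanner model and version 10, so batch and group cannot be told apart for these. Fewer cells with a transcript and less transcript per cell cannot be told apart in such pools either. Of 9 oocyte markers, all were measured on every OC array and 6, Bmp15 among them, on no Cumulus array, but Gdf9 was measured on all 4 Cumulus arrays (0.37 ± 0.47 against 9.89 ± 0.29 in OC, SD) and Zp1 on 3. Inha, an inhibin subunit of granulosa and cumulus cells, had a level of 5.85 ± 0.17 (SD, n = 4) in Cumulus and -5.25 ± 0.72 (SD, n = 7) in OC, and Gja1, a gap junction gene, 5.97 and -5.53. The summed level of the 11 granulosa and cumulus markers, the log2 of the sum of their linear levels, did not separate the groups. It was 7.33 to 7.51 in Cumulus and 7.46 to 8.95 in OC. In OC this sum was almost all Cyp19a1, which alone ran from 7.45 to 8.94. Of the 11 markers, 10 were measured on every Cumulus array and 3 on every OC array. Besides Inha and Gja1, higher in Cumulus were Inhba (4.63 in Cumulus, -6.64 in OC), Hsd17b1 (3.47 and -5.49) and Fst (2.05 and -7.27). Fshr (0.66 and -3.12) and Nr5a1 (-2.95 and -4.72) were higher there too. Cyp19a1 (8.16 in OC, 1.17 in Cumulus), Kitl (1.47 and -2.13), Amh (-3.83 and -6.70) and Foxl2 (-4.43 and -5.75) were higher in OC. Spic itself did not check the labels of the injected clones, since its level was 1.55 over the 8 Spi-C NT arrays and 2.09 in TSA(-).

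By RefSeq positions on mouse build GRCm38.p6, the 3 ligand genes are neighbours on chromosome 5. Ereg lies at chr5:91074617-91093649, Areg at chr5:91139599-91148432 and Btc at chr5:91357261-91402994, within 328.4 kb. Ptgs2 lies at chr1:150100031-150108234, Tnfaip6 at chr2:52038113-52056681, Cd44 at chr2:102811141-102901669, Ptx3 at chr3:66219887-66225806, Vcan at chr13:89655309-89743027, Has2 at chr15:56665627-56694546 and Adamts1 at chr16:85793827-85803113. The exons or untranslated regions that the probes match were not analysed here.

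The sequences shown are the 250 bases upstream of the RefSeq transcription start of Areg, which was the ligand gene measured most often outside Cumulus, and of Adamts1 and Tnfaip6, which differed between fertilised and cloned embryos in the results given further on. Capitals mark TGACG on either strand, the core of the element bound by CREB after cyclic AMP signalling, and the TATA box letters TATAAA on the strand of the gene. Each is written 5′ to 3′ on the strand of the gene, with the coordinates chr5:91139349-91139598 (plus strand) for Areg, chr16:85803114-85803363 (minus strand) for Adamts1 and chr2:52037863-52038112 (plus strand) for Tnfaip6.
Areg: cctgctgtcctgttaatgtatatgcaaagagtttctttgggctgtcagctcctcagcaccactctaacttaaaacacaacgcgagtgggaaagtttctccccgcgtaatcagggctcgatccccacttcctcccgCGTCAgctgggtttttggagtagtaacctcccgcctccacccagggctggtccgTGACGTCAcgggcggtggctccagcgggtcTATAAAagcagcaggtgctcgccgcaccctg
Adamts1: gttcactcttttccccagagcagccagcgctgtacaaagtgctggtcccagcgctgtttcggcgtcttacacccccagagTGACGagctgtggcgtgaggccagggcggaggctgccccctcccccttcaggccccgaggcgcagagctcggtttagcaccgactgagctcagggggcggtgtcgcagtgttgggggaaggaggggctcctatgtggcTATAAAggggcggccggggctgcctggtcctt
Tnfaip6: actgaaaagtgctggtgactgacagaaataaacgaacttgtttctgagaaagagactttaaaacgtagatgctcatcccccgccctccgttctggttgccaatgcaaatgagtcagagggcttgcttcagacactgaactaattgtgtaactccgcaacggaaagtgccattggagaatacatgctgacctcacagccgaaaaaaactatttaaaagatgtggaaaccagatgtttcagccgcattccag

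The Areg promoter held the full palindrome TGACGTCA at 61 bases before the start, a further TGACG on the other strand at 115 bases and TATAAA at 31 bases. The palindrome holds TGACG on both strands. The Adamts1 promoter held TGACG at 170 bases and TATAAA at 32 bases. Neither motif was in the Tnfaip6 window. Of the 8 genes with an entry in the promoter table (Has2 and Ereg had none there), Areg, Btc and Adamts1 had TGACG and Areg and Adamts1 had TATAAA. Of all 32851 windows of the same length, 17.8% held TGACG, 1.55% held TGACGTCA and 7.59% held TATAAA. The window of Vcan starts from a transcript that begins within the gene. GGGCGG, the core of the GC box, was searched on both strands as well, and was in 5 of the 8 windows (Ptgs2, Tnfaip6, Areg, Vcan and Adamts1) against 32.7% of all windows. These matches describe the letters of the windows and no binding was measured.

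In donor cumulus cells the lead probes of all genes except Has2 and Cd44 were high against oocytes. Cumulus minus OC gave 8 of 10 genes higher at an adjusted p under 0.01 (limma), beside 23.7% of all probes called higher and 68.4% called in either direction. The arrays of both groups did not overlap for these 8 genes, beside 65.1% of all probes. One gene, Cd44, was called lower by its lead probe, beside 44.6% of all probes called lower, and both of its groups were then below background. The median log2 difference of the 10 genes was 7.01.

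**Figure D1:**
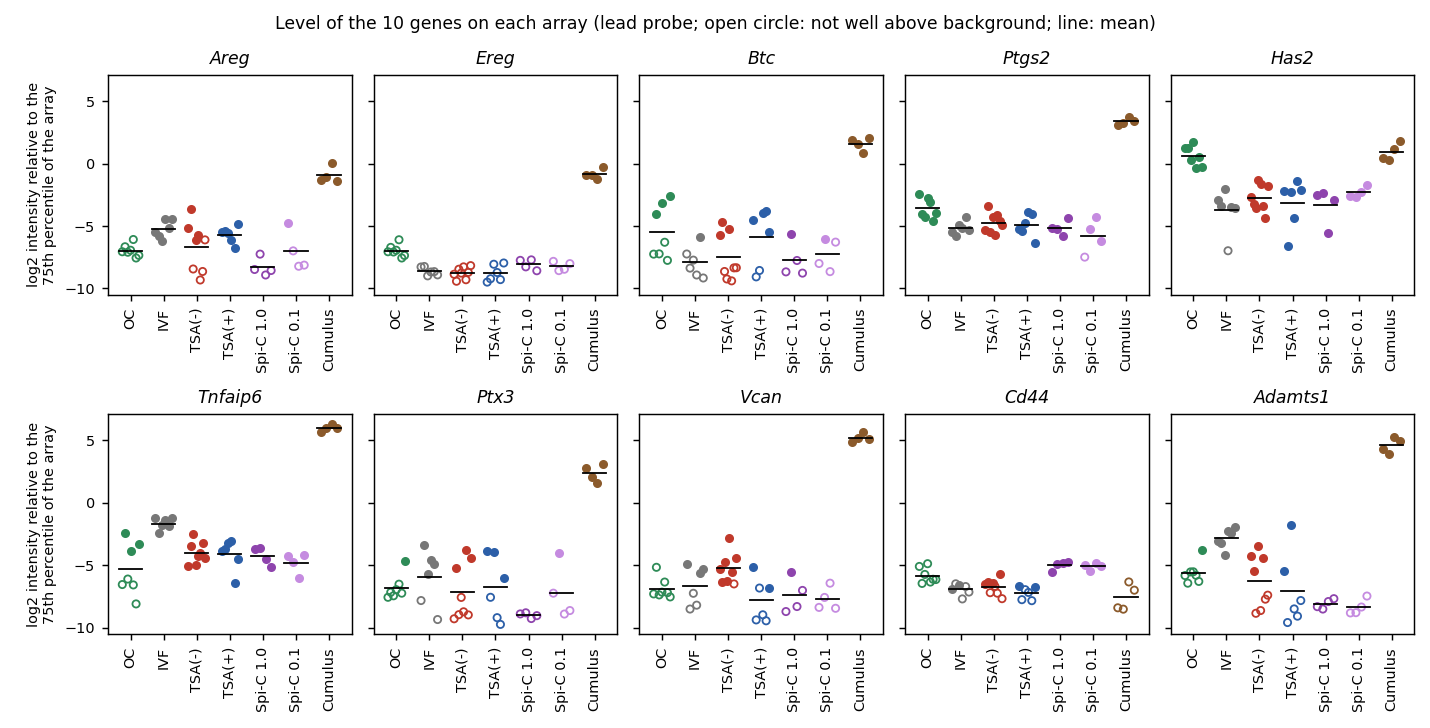
Level of each gene on each of the 39 arrays, as log2 intensity of the lead probe relative to the 75th percentile of the array, by group. Filled circles are spots well above background, open circles are not, and lines are group means. The 4 Cumulus arrays lie above all other arrays for 8 genes, the 7 OC arrays of Has2 lie near the Cumulus arrays, and the lead probe of Cd44 is dim in Cumulus.

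Among the ligands, Areg encodes amphiregulin. Its levels on the 4 Cumulus arrays were -1.34, -1.08, 0.07 and -1.38, while OC arrays ran from -7.56 over a median of -7.06 to -6.08 and none of the 7 was measured. The groups did not overlap, and Areg was at least 19.1-fold higher in Cumulus (log2 difference of at least 4.26, adjusted p = 1.83e-09 in limma). Ereg, which encodes epiregulin, had levels of -0.94, -0.92, -1.26 and -0.29 in Cumulus and was measured on none of the other 35 arrays. It was at least 20.2-fold higher in Cumulus than in OC (adjusted p = 3.41e-20). Btc, which encodes betacellulin, stood at 1.88, 1.54, 0.88 and 2.06 in Cumulus. OC arrays of Btc ran from -7.75 over -6.30 to -2.61, with 3 of 7 measured, and the log2 difference was 7.07 ± 1.07 (SE, adjusted p = 3.65e-07). The second Btc probe was not measured on any Cumulus array and carried no such difference.

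Ptgs2, the inducible cyclooxygenase that commits arachidonic acid to prostaglandins, had Cumulus levels of 3.09, 3.23, 3.72 and 3.44. It was also measured on all 7 OC arrays, from -4.56 over -3.95 to -2.40. The difference was 6.95 ± 0.49 on the log2 scale (SE, adjusted p = 4.14e-15), and the second probe gave 7.36 ± 0.57. Ptgs2 was thus detected in oocytes at 0.811% of its Cumulus level.

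Has2, the enzyme that makes the hyaluronan of the expanding cumulus, was the exception among the matrix genes. Its Cumulus levels were 0.42, 0.26, 1.18 and 1.78, and its OC levels ran from -0.36 over 0.55 to 1.72, with all arrays of both groups measured. The groups overlapped, and the log2 difference of 0.28 ± 0.79 (SE, adjusted p = 0.753) was within the spread. On this scale the OC level of Has2 was 82.6% of the Cumulus level. Has2 had a single probe, so no second probe bears on it. The marker sum of granulosa and cumulus cells was likewise no lower in OC than in Cumulus, but in OC it was almost all Cyp19a1. Cyp19a1, Kitl, Amh and Foxl2 were higher in OC and the other markers lower. By lead probes other than those of Has2 and Cd44, OC levels were 0.0236% (Vcan) to 1.53% (Areg) of Cumulus. Vcan, Areg and Ereg were measured on no OC array, so their shares, with both ends of this range, rest on the background level and are not measured levels. A part of cumulus cells in the OC level of Has2 was not tested.

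Tnfaip6 encodes TSG-6, which transfers heavy chains to hyaluronan. Its Cumulus levels of 5.67, 5.96, 6.32 and 5.97 had an SD of 0.26. OC arrays split, with 3 of 7 measured and levels from -8.09 over -6.10 to -2.39, and the difference was 11.25 ± 0.72 (SE, adjusted p = 1.93e-16). Ptx3, the pentraxin that anchors these chains, stood at 2.78, 2.04, 1.56 and 3.08 in Cumulus and was measured on 1 of 7 OC arrays. The difference for Ptx3 was 9.15 ± 1.16 (SE, adjusted p = 8.68e-09), and its second probe gave 8.61 ± 1.05. As 6 of the 7 OC arrays were at background for both probes, the size of this difference rests on the background level in OC. Vcan, the proteoglycan versican, had 4.84, 5.21, 5.64 and 5.07 in Cumulus and was measured on no OC array, so that it was at least 1334-fold higher in Cumulus (adjusted p = 2.4e-16). The other 3 Vcan probes, which were designed on another transcript of the gene, were measured on 3, 0 and 4 of the 4 Cumulus arrays and on no OC array, and the last of them gave a log2 difference of at least 0.74 (adjusted p = 0.00274).

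Adamts1 encodes the protease that cleaves versican in the ovulating follicle. Its Cumulus levels were 4.34, 3.91, 5.24 and 4.95, against OC levels from -6.43 over -5.80 to -3.74 with 1 of 7 measured. The difference was 10.20 ± 0.99 (SE, adjusted p = 2e-11), and the second probe was at least 7-fold higher. The size of the former rests on 6 OC arrays at background as well. Cd44, the cell surface receptor for hyaluronan, depended on the probe. The lead probe was measured on none of the 7 OC and none of the 4 Cumulus arrays, and no fold is given for it. The other 2 probes were at 0.97 ± 0.13 and 0.32 ± 0.19 (SD, n = 4) in Cumulus and were measured on no OC array, at least 71.6-fold and 45.7-fold higher in Cumulus.

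**Figure D2:**
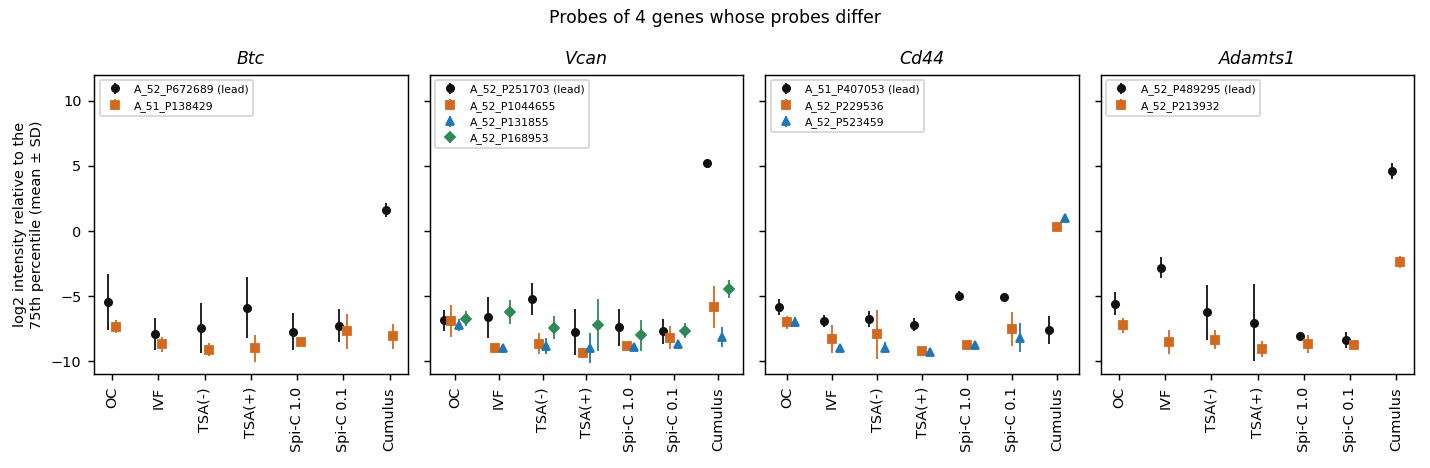
Level of each probe of Btc, Vcan, Cd44 and Adamts1, as mean ± SD over the arrays of each group on the log2 scale relative to the 75th percentile. The lead probes of Btc, Vcan and Adamts1 peak in Cumulus, as do both other Cd44 probes (0.97 and 0.32 in Cumulus, at background in OC), whereas the lead probe of Cd44 is lowest there (-7.56).

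The level of this programme in cloned embryos was asked next, since their nuclei came from such cumulus cells. Cumulus minus TSA(-) gave 9 of 10 genes higher in Cumulus at an adjusted p under 0.01, beside 25.2% of all probes, with a median log2 difference of 8.56 over the 10 genes against -0.09 over all probes. In either direction 56% of all probes were called. All but Cd44 were called, and the Cumulus and TSA(-) arrays did not overlap for any of these 9, beside 48.4% of all probes. The remaining levels differed among the genes in size and in how often they were measured. The TSA(-) level was 7.95% of the Cumulus level for Has2, measured on all 8 arrays, and 1.9% for Areg, measured on 4. IVF embryos, which have no cumulus nucleus, were at 4.04 and 5.05% for these genes. Whether transcripts were carried over from the donor cells was not tested. The share was 0.366% for Ptgs2 and 0.0997% for Tnfaip6, each measured on all 8 arrays. For Vcan it was 0.0726%, measured on 7 of 8 arrays. Ptx3 and Btc were each measured on 3 of 8 arrays, at 0.141 and 0.191% of Cumulus, and Adamts1 on 4 of 8 at 0.0537%. In IVF these shares were 0.27% for Ptgs2, 0.502% for Tnfaip6, 0.0279% for Vcan, 0.317% for Ptx3, 0.14% for Btc and 0.578% for Adamts1. Ereg was measured on no clone and was at least 70.5-fold higher in Cumulus than in TSA(-). Of the other Cd44 probes, 1 was measured on no clone and was at least 249-fold higher in Cumulus, and the other was measured on 2 of 8 TSA(-) arrays.

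Clones were then compared with fertilised embryos, which also have oocyte cytoplasm but no cumulus nucleus. No gene of the 10 was called higher in TSA(-) than in IVF (limma, beside 9.24% of all probes called higher), and 1 of 10, Vcan, was higher at an unadjusted p under 0.05. None was called higher by Tukey's HSD or by any of the other alternatives either. In TSA(+) none was called higher than in IVF, beside 8.66% of all probes, and none was higher at an unadjusted p under 0.05. Tnfaip6 and Adamts1 were called lower in TSA(-) and in TSA(+), 2 of 10 genes in each, beside 11.3 and 12.4% of all probes called lower and 20.5 and 21% called in either direction. In each comparison 1 of 10 genes, Tnfaip6, had no overlap between the groups, beside 14.7 and 20.1% of all probes. The TSA(-) and TSA(+) comparisons share the IVF arrays. The median log2 difference of the 10 genes was 0.04 for TSA(-) and -0.36 for TSA(+), against -0.05 and -0.24 over all probes.

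**Figure D3:**
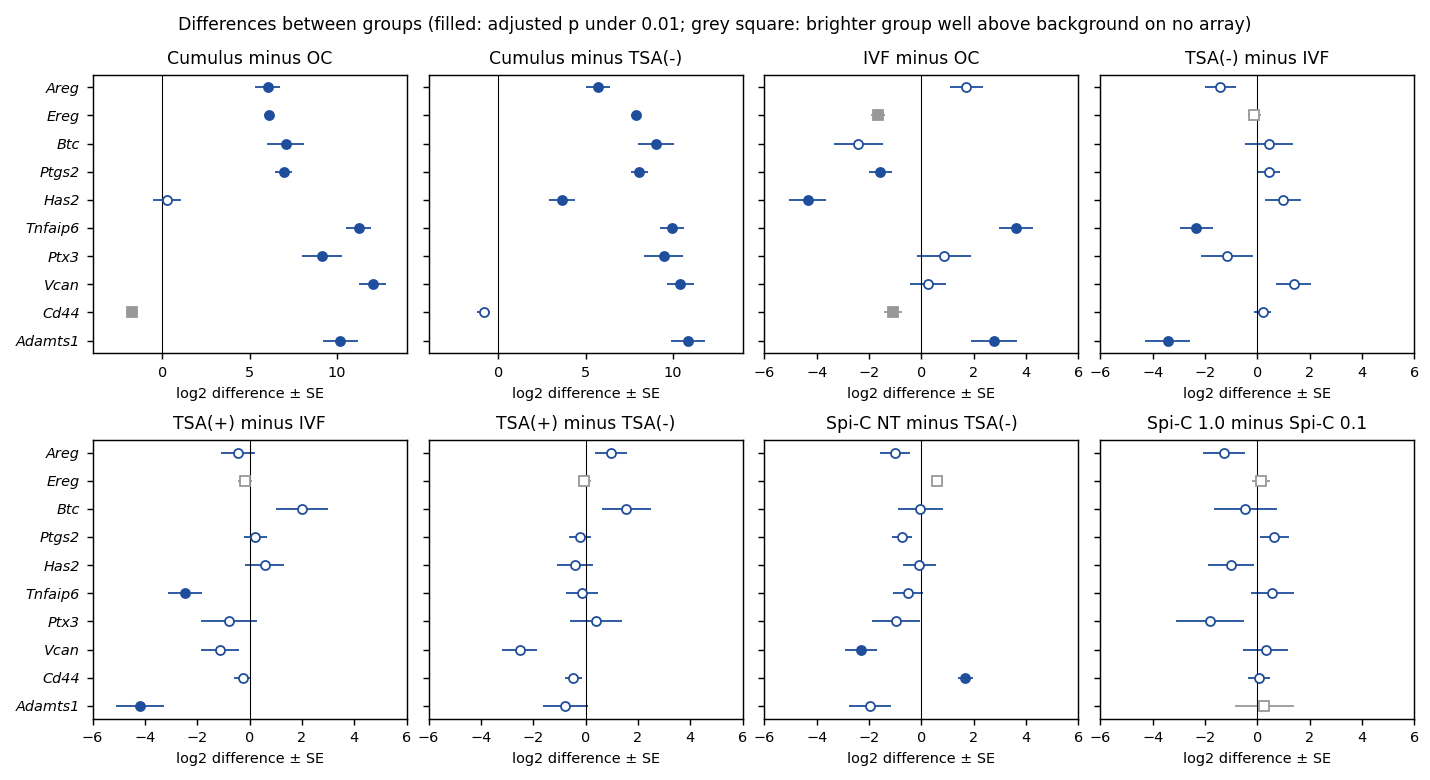
Log2 difference ± SE of each gene in the 8 comparisons of the design, by lead probe. Filled symbols have an adjusted p under 0.01 and grey squares mark genes for which the brighter group was measured on no array. Among comparisons of clones with IVF, Tnfaip6 (-2.33 and -2.47) and Adamts1 (-3.43 and -4.20) are filled and below 0.

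Tnfaip6 was measured on all 6 IVF arrays, from -2.42 over -1.60 to -1.23. TSA(-) arrays ran from -5.09 over -4.15 to -2.51 and did not overlap with IVF. TSA(+) arrays ran from -6.45 over -3.76 to -3.06 and did not overlap with IVF either. The log2 difference was -2.33 ± 0.62 (SE, adjusted p = 0.00361) for TSA(-) and -2.47 ± 0.66 (SE, adjusted p = 0.00394) for TSA(+). With quantile normalisation the adjusted p rose to 0.0138 and 0.0314 and with Tukey's HSD to 0.0139 and 0.0154, which ended the calls, and without replicate 5 of TSA(+) its call was lost (highest adjusted p = 0.0191). Within the 3 slides that hold IVF and TSA(-), the difference lay between -2.63 and -1.94, and within the 3 that hold IVF and TSA(+), between -3.23 and -2.59. Spi-C NT clones had Tnfaip6 levels of -3.68, -3.63, -4.46 and -5.11 at 1.0 mg/ml and -4.24, -4.72, -6.05 and -4.16 at 0.1 mg/ml, all below the IVF range.

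Adamts1 followed the same order by its lead probe. IVF arrays ran from -4.14 over -2.71 to -1.97, all 6 measured. TSA(-) arrays ran from -8.84 over -6.41 to -3.44 with 4 of 8 measured, and TSA(+) arrays from -9.58 over -8.16 to -1.80 with 2 of 6 measured. Both groups thus overlapped with IVF, with 1 TSA(+) array as the brightest of all embryos. The log2 difference from IVF was -3.43 ± 0.86 (SE, adjusted p = 0.00212) for TSA(-) and -4.20 ± 0.92 (SE, adjusted p = 0.0005) for TSA(+), and the latter was not called when only those groups were fitted (adjusted p = 0.0141). As only 4 of 8 TSA(-) and 2 of 6 TSA(+) arrays were measured, the size of both differences rests in part on the background level. Within slides the difference lay between -4.79 and -2.16 for TSA(-) and between -6.06 and -2.40 for TSA(+). None of the 8 Spi-C NT arrays was measured, and Adamts1 was at least 13.7-fold higher in IVF than in these clones (adjusted p = 3.9e-06). The second Adamts1 probe was measured on only 1 of 6 IVF and 1 of 8 TSA(-) arrays and gave 0.17 ± 0.35 for TSA(-) minus IVF (SE, adjusted p = 0.788), so the lead probe alone carries this difference.

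Markers of granulosa and cumulus cells were set beside these values. The summed level of the 11 marker genes, again the log2 of the sum of linear levels, ran from 2.30 to 3.72 in IVF. It ran from 2.01 to 2.60 in TSA(-) and from 1.86 to 2.52 in TSA(+), against 7.33 to 7.51 in Cumulus. Inha was measured on 3 of 6 IVF arrays at -7.88 ± 1.43 (SD, n = 6) and on 5 of 8 TSA(-) arrays at -6.85 ± 1.47 (SD, n = 8). Inhba had -6.38 ± 3.40 in IVF and -4.30 ± 1.91 in TSA(-), and Fst -6.36 ± 1.91 and -4.56 ± 2.00. Hsd17b1 (-5.13 in IVF, -4.21 in TSA(-)), Nr5a1 (-2.48 and -2.12), Kitl (-2.68 and -2.50) and Foxl2 (-6.18 and -6.02) also had higher means in TSA(-). Fshr (-4.68 and -4.87), Gja1 and Cyp19a1, the aromatase gene, went the other way. In IVF and TSA(-), Gja1 and Cyp19a1 had the highest levels of the 11 and so weighed most in the sum. Gja1 was at 0.82 ± 0.43 in IVF and 0.29 ± 0.34 in TSA(-), and Cyp19a1 at 2.41 ± 0.70 in IVF and 1.62 ± 0.35 in TSA(-). Amh was measured on no array of either group.

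**Figure D4:**
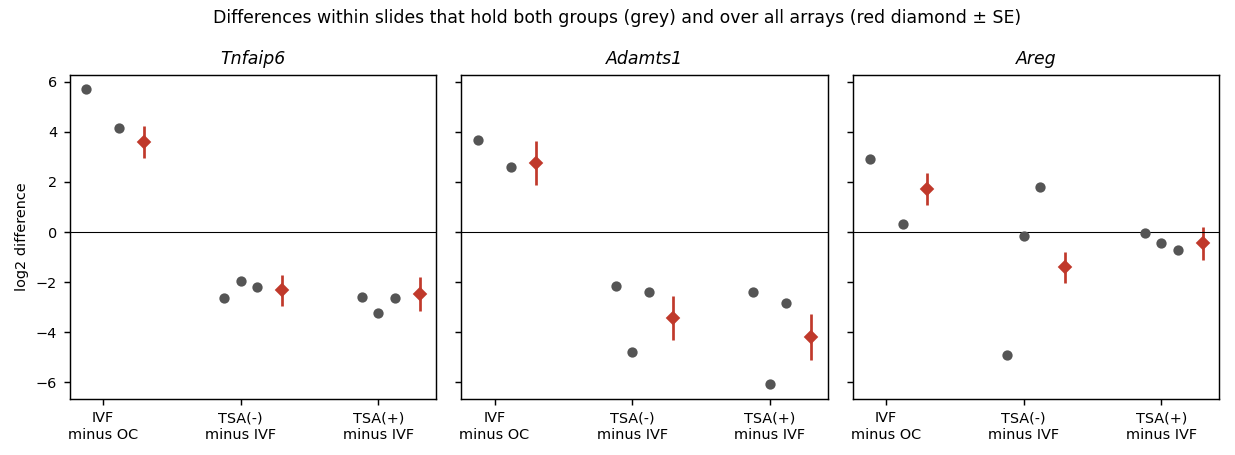
Log2 differences of Tnfaip6, Adamts1 and Areg within each slide that holds both groups (grey points, difference of slide means) and over all arrays (red diamonds ± SE). Tnfaip6 and Adamts1 lie above 0 on each slide for IVF minus OC and below 0 on each slide for clones minus IVF, whereas Areg lies on both sides of 0 for TSA(-) minus IVF, from -4.89 to 1.79.

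No other gene was called between IVF and TSA(-) or TSA(+). Areg was measured on all 6 IVF arrays (-6.21 over -5.30 to -4.43), on 4 of 8 TSA(-) arrays (-9.32 over -6.12 to -3.67) and on all 6 TSA(+) arrays (-6.78 over -5.53 to -4.82). Its log2 difference from IVF was -1.41 ± 0.61 (SE, adjusted p = 0.0823) for TSA(-) and -0.45 ± 0.65 (SE, adjusted p = 0.649) for TSA(+). Vcan went the other way in TSA(-) by its lead probe, with 7 of 8 TSA(-) arrays measured (-6.49 over -5.42 to -2.83) against 3 of 6 IVF arrays (-8.50 over -6.44 to -4.89), a log2 difference of 1.38 ± 0.67 (SE, adjusted p = 0.122). Within slides this ran from -1.48 to 4.89. Has2 ranged from -6.98 to -2.00 in IVF, from -4.33 to -1.35 in TSA(-) and from -6.59 to -1.43 in TSA(+), and its differences of 0.98 ± 0.68 and 0.57 ± 0.73 from IVF (SE, adjusted p = 0.313 and 0.602) were within the spread. For Ptgs2 the differences were 0.44 ± 0.42 and 0.22 ± 0.45. Ptx3 and Btc were measured on some arrays of IVF, TSA(-) and TSA(+) and scattered over several log2 units in each. Ptx3 ran from -9.34 to -3.34 in IVF and from -9.28 to -3.79 in TSA(-), with log2 differences of -1.17 ± 1.00 and -0.78 ± 1.07 for TSA(-) and TSA(+) minus IVF. Btc was measured on 1 of 6 IVF, 3 of 8 TSA(-) and 4 of 6 TSA(+) arrays, and its difference of 2.00 ± 0.99 for TSA(+) minus IVF had an adjusted p of 0.125.

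Treatment with TSA changed none of the 10 genes at an adjusted p under 0.01 in the direct comparison of TSA(+) with TSA(-) (limma, beside 0.294% of all probes called), while 1 gene had an unadjusted p under 0.05 and Tukey's HSD also called 0. Groups did not overlap for 0 of the 10 genes, beside 1.46% of all probes, and 0.0828 and 0.211% of all probes were called higher and lower. The gene with an unadjusted p under 0.05 was Vcan. Its TSA(+) levels ran from -9.44 over -7.89 to -5.14 with 2 of 6 arrays measured, and overlapped with the TSA(-) range. The log2 difference was -2.52 ± 0.67 (SE, adjusted p = 0.0373), and on the only slide that holds both groups it was 1.23, in the other direction. Differences of the other 9 genes lay between -0.78 (Adamts1) and 1.56 (Btc).

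Injection of Spi-C mRNA was compared with untreated clones over the 8 Spi-C NT and 8 TSA(-) arrays. Spi-C NT arrays had their own slides, scanner model and software version. Injection and batch thus cannot be told apart, neither here nor against IVF. Vcan was called lower, 1 of 10 genes beside 6.4% of all probes called lower, and Cd44 was called higher by its lead probe, 1 of 10 beside 9.11% of all probes called higher and 15.5% called in either direction. Cd44 was also the 1 gene without overlap, beside 9.37% of all probes. Vcan levels were -8.70, -5.54, -8.30 and -7.01 at 1.0 mg/ml and -8.37, -7.57, -6.43 and -8.44 at 0.1 mg/ml, with 1 of 8 measured, and the log2 difference was -2.31 ± 0.62 (SE, adjusted p = 0.0051). The Vcan call was lost with the means of all probes of the gene (-0.62, adjusted p = 0.0879), with separate fits of both experiments (adjusted p = 0.0123), with the replicate block (-2.12, adjusted p = 0.0312) and when any of 7 single arrays was left out: TSA(-) replicates 3, 5 and 8, Spi-C 1.0 replicates 1 and 3, and Spi-C 0.1 replicates 1 and 4 (highest adjusted p = 0.0157). Cd44 levels by the lead probe were -5.56, -4.93, -4.78 and -4.71 at 1.0 mg/ml and -4.95, -5.46, -4.82 and -5.07 at 0.1 mg/ml, all measured, against -7.67 over -6.59 to -5.69 in TSA(-) with 4 of 8 measured. The difference of 1.68 ± 0.30 (SE, adjusted p = 4.35e-05) had no counterpart in the other 2 Cd44 probes, which were measured on no Spi-C NT array, and it fell to 0.12 (adjusted p = 0.319) after normexp background correction. Between the 2 concentrations of mRNA, 0 of the 10 genes were called (limma, beside 0.00502% of all probes), 0 had an unadjusted p under 0.05, and Tukey's HSD called 0. No gene was without overlap there, beside 3.32% of all probes. Spi-C NT was set beside IVF as well, a comparison added after the data were seen. There Tnfaip6 (-2.85 ± 0.62, adjusted p = 0.000313), Areg (-2.43 ± 0.61, adjusted p = 0.00158) and Adamts1 were called lower, 3 of 10 beside 14.7% of all probes, and Cd44 was called higher by its lead probe (1.88 ± 0.32, adjusted p = 1.11e-05), 1 of 10 beside 16% of all probes. In either direction 30.6% of all probes were called, and 3 of the 10 genes had no overlap, beside 24.5% of all probes. Areg was measured on 1 of 8 Spi-C NT arrays.

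From oocyte to the fertilised 2-cell embryo, Has2 and Ptgs2 fell and Tnfaip6 rose, while Adamts1 rose by its lead probe alone. IVF minus OC gave 2 of 10 genes higher, beside 23.6% of all probes, and 4 of 10 lower, beside 43.7% of all probes, with 67.3% called in either direction. The groups did not overlap for 3 genes (Has2, Ereg and Cd44), beside 52% of all probes. Of the 4 lower, Ereg and Cd44 were measured on no OC array and give no fold. Has2 had the largest fall, from 7 OC arrays all above -0.36 or at it to 6 IVF arrays all at -2.00 or below, with a log2 difference of -4.35 ± 0.70 (SE, adjusted p = 1.18e-06) against a median of -0.90 over all probes. Within the 2 slides that hold both groups it was -7.38 and -3.04. The former rests on IVF replicate 4 alone, at -6.98, where Has2 was not measured. Ptgs2 fell by 1.58 (SE 0.44, adjusted p = 0.00158), and its second probe fell by 1.59 (adjusted p = 0.00504), but the call was lost with Tukey's HSD (adjusted p = 0.0191). The 75th percentile was lower in OC than in IVF (medians 373 and 1071 units). Probes of the 10 genes that were measured in neither group fell by 1.36 to 2.11 on this scale. The fall of Ptgs2 thus lay within the range of probes at background. Tnfaip6 rose by 3.61 ± 0.64 (SE, adjusted p = 5.29e-06) on the log2 scale, and the 6 IVF arrays all lay above the highest OC array (-2.39) except 1 at -2.42. Adamts1 rose by 2.76 ± 0.88 (SE, adjusted p = 0.00553), within slides by 2.58 and 3.69, but was not called with quantile normalisation (2.31, adjusted p = 0.0114) or with centring on the median (2.08, adjusted p = 0.0271), and normexp left 0.21. Tukey's HSD (adjusted p = 0.0649), separate fits of both experiments (adjusted p = 0.0113) and the mean of both probes (0.75, adjusted p = 0.149) ended the call too, and the second probe was called lower (-1.26 ± 0.36, adjusted p = 0.00213) with no OC array measured. Its call was also lost without any of OC replicates 2 and 6 and IVF replicates 4, 5 and 6 (highest adjusted p = 0.0138). Beside these values, the granulosa and cumulus marker sum was 7.46 or more on each OC array and 3.72 or less on each IVF array. In OC this sum was almost all Cyp19a1, at 8.16 ± 0.49 (SD, n = 7) in OC and 2.41 ± 0.70 (SD, n = 6) in IVF. Inha, Amh, Foxl2, Fshr and Kitl also had lower means in IVF. Gja1 (-5.53 in OC, 0.82 in IVF), Nr5a1 (-4.72 and -2.48), Fst, Inhba and Hsd17b1 had higher means in IVF, with Fst measured on no OC array. A part of cumulus cells in these differences was not tested. Areg was measured on all 6 IVF arrays and no OC array, at a log2 difference of 1.72 ± 0.63 (SE, adjusted p = 0.0142).

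Over the 7 groups, 21 pairs were tested for each gene. Cumulus was the highest group for 9 genes, and it differed from the next group at an adjusted p under 0.01 for 8 of them, the exception being Has2. For Has2 the order was Cumulus and OC, which did not differ beyond their spread, and then the 5 embryo groups from -2.32 in Spi-C 0.1 to -3.72 in IVF, of which no neighbours differed beyond their spread. For Tnfaip6 and Adamts1, IVF came second and differed from both its neighbours, and no neighbours below it did. For Ptgs2, OC was second at -3.58 and was not separated from TSA(-) next to it (adjusted p = 0.0111). For Ptx3, Areg, Btc and Vcan, no neighbours below Cumulus differed. For Ereg, OC (-6.97) differed from Spi-C 1.0 (-8.08) next to it, both below background. For the lead probe of Cd44, the Spi-C groups were highest and Cumulus lowest, and OC differed from TSA(-) next to it (adjusted p = 0.00824), with OC below background.

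The genes whose level over the 39 arrays was most like each member were found among 22798 named probes that were well above background throughout at least 1 group. For Ereg, Pde10a, a phosphodiesterase gene, had r = 0.984. Ptgs2 was most like Anxa2 (r = 0.955), Tnfaip6 most like Junb, an immediate early transcription factor gene (r = 0.937), Vcan most like Serpinb6c (r = 0.941), Adamts1 most like Cxcl14, a chemokine gene (r = 0.929), Ptx3 most like Met, a receptor tyrosine kinase gene (r = 0.890), Btc most like Tyrobp (r = 0.869), Areg most like Pfkp, a glycolytic enzyme gene (r = 0.853), and Has2 most like Phlpp1 (r = 0.870). The lead probe of Cd44 was most like Tyro3 (r = 0.878). These coefficients describe arrays that share groups and slides, with the 4 Cumulus arrays far from the rest for most members.

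Other genes of these pathways were taken from 7 lists of 77 genes, of which 76 were on the array and tested. In Cumulus minus TSA(-), 47 of the 76 were higher and 21 lower, beside 25.2% of all probes higher and 30.8% lower. Among regulators of the gonadotropin response, 14 of 16 were higher and 0 lower, among them Lhcgr, the receptor of luteinising hormone, and Runx1 and Cebpb, transcription factors it induces (median log2 difference of the list 2.89 against -0.09 over all probes). Among matrix proteases and inhibitors, 10 of 12 were higher and 2 lower. Of the prostaglandin pathway, 8 of 12 were higher and 3 lower. Of the EGF family, 2 of 10 were higher and 7 lower, and of the hyaluronan matrix list 6 of 13 were higher and 3 lower. Of oocyte signals and their receptors, 2 of 7 were higher and 5 lower, and of cytokine and innate signals 5 of 6 were higher and 1 lower. In Cumulus minus OC, 35 of the 76 were higher and 28 lower, beside 23.7% of all probes higher and 44.6% lower. Of the regulators of the gonadotropin response, 11 of 16 were higher there and 4 lower, with Runx1, Rgs2 and Hif1a among the lower.

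In TSA(-) minus IVF, 9 of the 76 were higher and 8 lower, shares near the 9.24 and 11.3% of all probes, and the medians of the 7 lists lay between -0.17 and 0.07. Ambp, which encodes bikunin of the inter-alpha-trypsin inhibitor whose heavy chains TSG-6 transfers to hyaluronan, was at -6.31 ± 0.97 (SD, n = 6) in IVF and at 1.83 ± 0.55 (SD, n = 8) in TSA(-), 8.15 ± 0.37 higher (SE, adjusted p = 2.39e-18). It was as low in Cumulus (-6.16 ± 1.53, 1 of 4 arrays measured) and in OC (-6.57 ± 0.36, 0 of 7 measured), and stood at 1.66 in TSA(+) and 1.58 in Spi-C NT. Snap25, which takes part in vesicle fusion, was 2.17 ± 0.48 higher and Adam17, the sheddase that releases EGF-like ligands, 0.43 ± 0.13 higher. Erbb4, an EGF family receptor, was called higher but was measured on 3 of 8 TSA(-) arrays and on no IVF array. Lower in TSA(-) were Tlr2, a receptor of innate immunity (-2.56 ± 0.56), Itih2, a heavy chain of the same inhibitor (-1.71 ± 0.31), Nrg1, a neuregulin ligand (-1.28 ± 0.25), Nrip1, a nuclear receptor cofactor (-1.08 ± 0.25), Adamts4, a proteoglycan-cleaving protease (-0.94 ± 0.21), and Ptges2, a prostaglandin E synthase (-0.87 ± 0.13). Of the 76 genes, 7 were higher and 9 lower in TSA(+) minus IVF, beside 8.66 and 12.4% of all probes, and 1 was higher and 1 lower in TSA(+) minus TSA(-), beside 0.0828 and 0.211%.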

How the data were processed

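Expression was measured on 39 one-colour Agilent whole mouse genome arrays. The authors extracted spot intensities with Agilent Feature Extraction, 9.5.3.1 per their processing notes, while the file headers give 10.5.1.1 for Cumulus and Spi-C arrays. The value table deposited by the authors holds log2 values relative to the 75th percentile, centred for each probe on its median over arrays. Scanner values treated in the same way correlated with it at 0.9998 or above on every array. Here log2 of the processed signal minus the 75th percentile of each array was used, spots of a probe were averaged, and control spots and outlier marks were left out. The 39848 probes with at least 10 units on at least 1 of the 39 arrays were tested, and values were not floored. They were tested in 1 fit over 7 groups with limma 3.58.1 in R 4.3.3. Benjamini-Hochberg adjustment was over all probes, with calls at an adjusted p under 0.01. Probes were named through RefSeq accessions (27861 probes). On data simulated for TSA(-) minus IVF with 39848 probes, 100 probes had a log2 change of 1 and 100 a change of 2. Of these, 20% and 62% were called. In the real comparison 8166 probes were called, so the adjustment was less strict there and the simulated rates do not give its sensitivity. Named related genes were, per list, up to 5 in each direction among those called without overlap in TSA(-) minus IVF, and likeness took the highest Pearson coefficients; some genes that these rules name are not reported here. Members and lists were chosen with earlier results of these data known. The number of arrays limits the precision. Alternatives changed the normalisation, background correction, probe filter, threshold, samples fitted, probe summary and test, and left out each array.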

Additional observations from a re-analysis of the deposited data

Results flagged for a closer look

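Of 70 sets of a gene and a group tested for a value far from the others, 3 had one, and chance gives about 1 in 20. Has2 was at -6.98 on IVF replicate 4 and was not measured there, against -3.56 to -2.00 on the other 5 IVF arrays, all measured. Ptx3 was at -4.68 on OC replicate 7, against -7.56 to -6.51 on the other OC arrays, of which none was measured. Adamts1 was at -3.74 on the same OC replicate 7, against -6.43 to -5.52 on the others, of which none was measured.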

How the results depend on the processing

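Of 450 alternatives to the 30 called differences, 430 kept the direction and the call, 19 kept the direction and lost the call, and 1 reversed; 21 differences kept the call throughout. The reversal was Cd44 in Cumulus minus OC, at 4.51 with the mean of all probes of the gene. In IVF minus OC, Tukey's HSD called 3 of the 10 genes in place of 6. In TSA(-) minus IVF, quantile normalisation and Tukey's HSD each called 1 in place of 2. In TSA(+) minus IVF, these and a fit of only the groups compared each called 1 in place of 2. In TSA(+) minus TSA(-), a threshold of 0.05 called 1 in place of 0. In Spi-C NT minus TSA(-), normexp called 6 in place of 2, separate fits of both experiments 1, and the mean of all probes 0. Leaving out 1 array gave 9 to 9 calls in Cumulus minus OC, 9 to 10 in Cumulus minus TSA(-) (Cd44 added without Cumulus replicate 3), 4 to 7 in IVF minus OC (Cd44 lost without OC replicate 1 or 4 or IVF replicate 4, Areg added without TSA(-) replicate 2 or 6 or Spi-C 0.1 replicate 1), 2 to 2 in TSA(-) minus IVF, 1 to 2 in TSA(+) minus IVF, 1 to 2 in Spi-C NT minus TSA(-), and 0 to 0 in the others of the design. The cause of these changes was not tested.

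Same-numbered arrays of different groups correlated between -0.088 and 0.154, with 1 of 97 pairs over 0.1, so the numbers do not pair them. With the replicate block, 1 gene was called in Spi-C NT minus TSA(-), where Vcan had -2.12 (adjusted p = 0.0312), and no other call of the 10 genes changed.

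Over all probes, the share of calls that were higher moved from 34.7% to 46.3% (quantile) and 21.5% (normexp) in Cumulus minus OC. With median centring and normexp it moved from 45% to 64.9% and 65% in Cumulus minus TSA(-), from 35.1% to 24.5% and 18.4% in IVF minus OC, and from 58.7% to 37.8% and 21.5% in Spi-C NT minus TSA(-), and with median centring from 41.2% to 59.3% in TSA(+) minus IVF. In TSA(+) minus TSA(-) the 117 calls became 11 (only the groups compared) to 982 (threshold of 0.05), and the share higher went from 28.2% to 73.4% with median centring. In Spi-C NT minus TSA(-) the 6183 calls became 3301 (at least 2-fold) to 16269 (normexp), and between concentrations 2 became 0 to 32 (Tukey's HSD). Most members in embryos lay near background, which limits what their differences can show.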
